A study of Mus musculus with 10 samples.

Results

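The genes that encode the proteasome and its regulators were described in the retinas of mice injected with 1 of 2 adeno-associated virus (AAV) vectors. A gene was included when its GENCODE M21 symbol began with Psma, Psmb, Psmc, Psmd, Psme, Psmf or Psmg followed by a number, when it was annotated as protein coding, and when its mean over the 10 libraries reached 0.5 counts per 1000000 (CPM). The immunoproteasome genes Psmb8, Psmb9 and Psmb10 were set apart by name and are described only beside their constitutive partners. The rule used no difference between the vectors. It gave 45 of the 57010 genes in the table, and 28506 of those 57010 had any count. Psme2b at 0.514 CPM and Psmg4 at 3.41 CPM of the unscaled library totals were the members nearest above the level rule, and Psma8 at 0.0701 CPM and Psmb11 at 0.0180 CPM were the matching protein-coding genes below it. Psmc3ip matched the pattern but encodes a cofactor of meiotic recombination, not a proteasome subunit. The mice were 6 to 8 weeks old, and 5 in each group received an intravitreal injection, that is, into the eye in front of the retina. The vector carried green fluorescent protein (GFP) in the capsid of AAV serotype 2 (AAV2-GFP) or in the capsid named AAV206 (AAV206-GFP), and retinas were taken 14 days later for bulk RNA sequencing. All 10 mice were injected with a GFP vector, and an uninjected or vehicle group was not analysed here, so each difference below is between the vectors. Strain, sex, dose and the number of eyes in a library are not given in the sources used here. In bulk tissue, fewer cells of a type and less RNA per cell cannot be told apart.

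The 26S proteasome degrades proteins tagged with ubiquitin. Its 20S core is a barrel of alpha rings, which gate the entrance, around beta rings, in which PSMB5, PSMB6 and PSMB7 carry the chymotrypsin-like, caspase-like and trypsin-like sites. The 19S cap binds ubiquitin, removes it and unfolds the substrate with a ring of ATPases. The PSMG chaperones build the core, and PSMD5, PSMD9 and PSMD10 help to build the base of the cap. PA28 activators (PSME1 and PSME2, or PSME3), PA200 (PSME4) and the inhibitor PSMF1 act at the ends of the core. Interferon replaces the constitutive catalytic subunits with PSMB8, PSMB9 and PSMB10 and raises PSME1 and PSME2. When proteasome activity is low, the transcription factor NFE2L1, paired with a small MAF protein, raises proteasome genes as a group. In photoreceptors the proteasome clears misfolded proteins of a cell layer that makes visual pigment at a high rate.

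Library totals ranged from 10989843 to 12752604 counts. Rod markers were present at 49196 to 52359 summed CPM in the AAV2-GFP mice and 52810 to 58016 with AAV206-GFP, so the labelled tissue was borne out by its defining genes. Other marker lists differed in range between the groups: cone markers spanned 732 to 795 against 812 to 860 CPM, lens markers 9.23 to 28.4 against 0.455 to 10.7 CPM, erythrocyte markers 67.7 to 85.6 against 100 to 318 CPM and microglia markers 20.6 to 174 against 17.5 to 24.2 CPM, each with AAV2-GFP first. Markers of the retinal pigment epithelium stood at 8.96 to 33.7 against 11.96 to 19.3 CPM. No marker on these lists was at 0 in every library. A score of 10 interferon-response genes, the mean of log2(CPM + 1), was 4.63, 2.26, 3.37, 5.32 and 2.27 in AAV2-GFP replicates 1 to 5 and lay between 2.12 and 2.65 with AAV206-GFP. The part of these differences in the proteasome values below was not tested. The interferon score was entered as a covariate, but its high values were all in AAV2-GFP mice. Of its 9 tested genes, 8 were themselves called lower with AAV206-GFP. Score and vector thus cannot be fully told apart, and that fit cannot show what part interferon has.

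Of the 45 genes, 44 passed the low-count filter and 2 differed between the vectors: Psmb5, a catalytic subunit, and Psmg4, an assembly chaperone, both lower with AAV206-GFP (edgeR's quasi-likelihood test, adjusted p under 0.05). That is 4.55% of the tested members, against 11.2% of all 15539 tested genes, of which 5.95% were called higher and 5.3% lower. No member was called higher. At an unadjusted p under 0.05 there were 12 members, 11 of them lower (25%), against 28% of all genes in either direction and 14.3% lower. When single libraries were left out, that count of 12 ran from 5 (without AAV206-GFP replicate 4) to 15 (without AAV206-GFP replicate 3). It was 7 without AAV2-GFP replicate 3, 7 without AAV2-GFP replicate 4 and 14 without AAV2-GFP replicate 2. The share of all genes at an unadjusted p was not computed for these fits. The log2 fold change of AAV206-GFP over AAV2-GFP was below 0 for 35 of 44 members (79.5%), against 51.8% of all tested genes, but the sizes were small. The median over the 44 members was -0.08, against -0.01 over all tested genes, and 36 of 44 members (81.8%) lay within 0.25 of 0, against 68.3% of all genes. Under upper-quartile scaling Psmd13 moved from just below 0 to 0.006. Without AAV2-GFP replicate 3 the count below 0 was 25 of 44. It was 26 of 44 with the interferon score as a covariate, 29 of 44 with limma-voom and sample weights, and 36 of 44 without AAV2-GFP replicate 5. The share of all genes below 0 was not computed for these fits. The spread within groups was also small: the median SD of log2(CPM + 1) was 0.134 for the members and 0.167 for all genes. These comparisons of size and spread with all genes were not matched on expression level. The groups did not overlap for 1 member, Psmg4 (2.27% of 44, against 9.78% of all genes and 4.36% when only those lower with AAV206-GFP are counted). With the interferon score as a covariate no member was called, against 3.64% of all genes in either direction and 1.42% lower, and 4 members had an unadjusted p under 0.05 (edgeR). The share of all genes at that unadjusted p was not computed for this fit either.

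**Figure D1:**
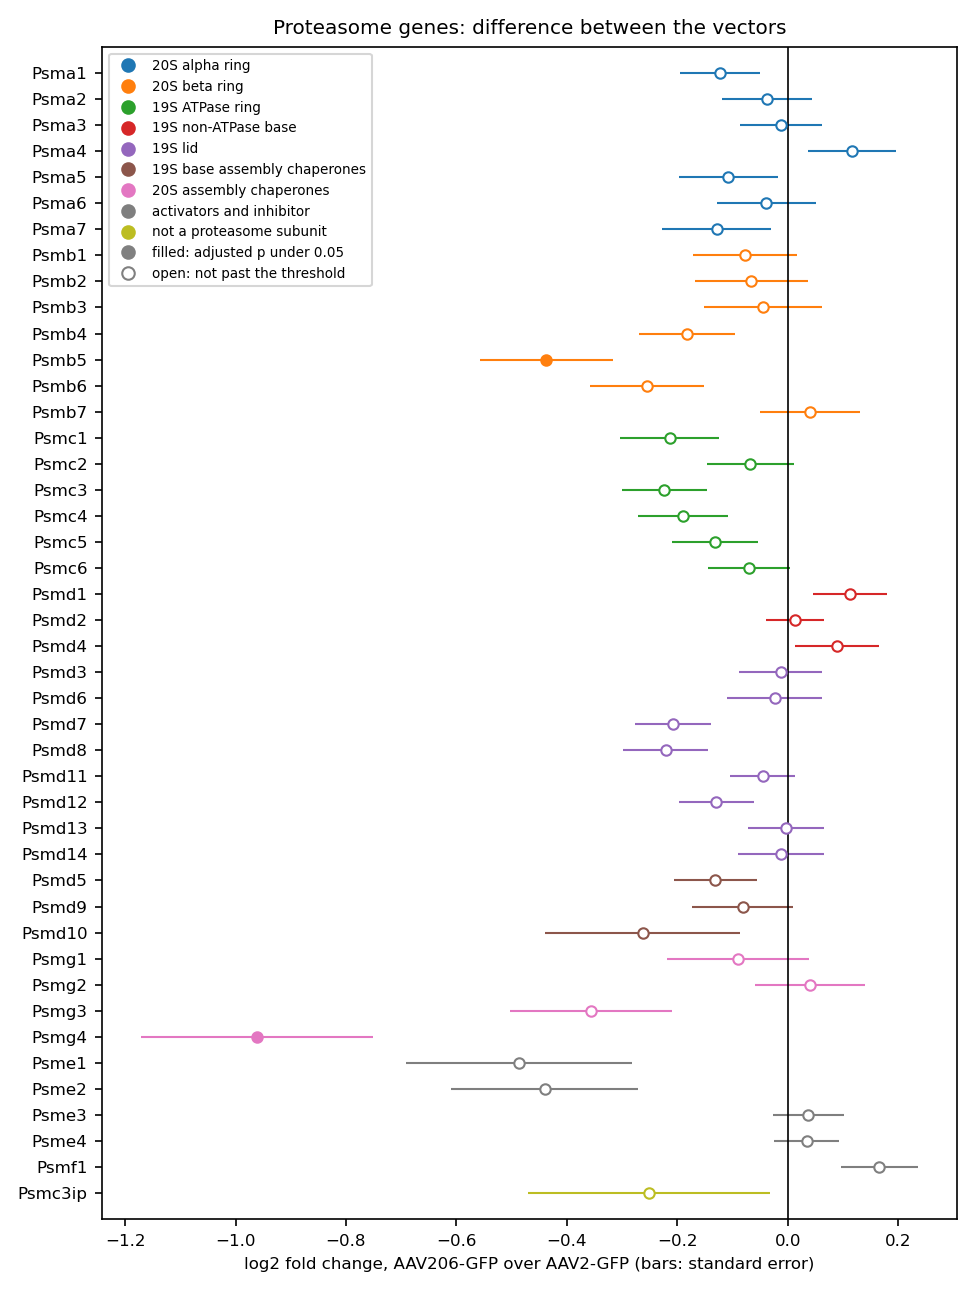
Log2 fold change of AAV206-GFP over AAV2-GFP (horizontal axis) for the 44 tested genes (vertical axis), coloured by structural group; bars are standard errors and filled points passed an adjusted p of 0.05. Most points lie a little left of 0, and only Psmb5 at -0.44 and Psmg4 at -0.96 are filled.

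The upstream sequences of Psmb5, Psmg4 and Psmb6 are shown. Psmb5 and Psmg4 passed the test. Psmb6 encodes another catalytic subunit, did not pass, and is among the genes with a motif match listed below. Each sequence is the 250 bases before the RefSeq transcription start, 5′ to 3′ on the gene's strand (RefSeq, GRCm38.p6). Capitals mark a match to TGACNNNGC, the core of the antioxidant response element that NFE2L1 and small MAF dimers bind. The Psmb5 sequence lies at chr14:54617996-54618245 (minus strand), that of Psmb6 at chr11:70525107-70525356 (plus strand) and that of Psmg4 at chr13:34162714-34162963 (plus strand).
Psmb5: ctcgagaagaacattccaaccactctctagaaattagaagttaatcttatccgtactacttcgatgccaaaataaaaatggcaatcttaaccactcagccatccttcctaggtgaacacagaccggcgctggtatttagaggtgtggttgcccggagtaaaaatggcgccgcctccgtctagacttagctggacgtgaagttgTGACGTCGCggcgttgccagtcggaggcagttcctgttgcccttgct
Psmb6: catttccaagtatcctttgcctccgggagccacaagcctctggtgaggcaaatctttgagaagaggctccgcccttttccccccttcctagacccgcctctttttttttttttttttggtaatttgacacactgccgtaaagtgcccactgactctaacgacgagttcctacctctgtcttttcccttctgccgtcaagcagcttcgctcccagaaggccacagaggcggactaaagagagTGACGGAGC
Psmg4: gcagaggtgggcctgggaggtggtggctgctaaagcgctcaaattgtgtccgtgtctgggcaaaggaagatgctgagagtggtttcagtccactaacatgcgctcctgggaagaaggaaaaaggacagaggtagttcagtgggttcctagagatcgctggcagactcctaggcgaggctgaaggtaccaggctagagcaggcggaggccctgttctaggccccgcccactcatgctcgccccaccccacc
The match in Psmb5 spans positions -47 to -39 from the start, and that in Psmb6 spans positions -9 to -1. The Psmg4 window held no match in these letters. A RefSeq window of 300 bases, from 250 before to 50 after the start, was matched by symbol for 38 of the 45 genes. On either strand 6 of the 38 windows (15.8%) held TGACNNNGC, against 12.4% of all 32851 windows: those of Psmb5, Psmb6, Psmc6, Psmd9, Psmd12 and Psme4. CCAAT was found in 13 of 38 (34.2%), against 37.4% of all windows, and the heat shock element (GAA, any 2 bases, TTC, any 2 bases, GAA) in 0 of 38, against 0.603%. These motifs do not overlap each other in letters, and a match describes the sequence only.

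In the beta ring, Psmb5 was lower with AAV206-GFP than with AAV2-GFP. Psmb5 (ENSMUSG00000022193, chr14:54614119-54618022, minus strand), which encodes the chymotrypsin-like subunit targeted by bortezomib, stood at 41.9, 45.2, 69.98, 57.6 and 53.6 CPM in AAV2-GFP replicates 1 to 5 and at 37.3, 37.4, 43.4, 35.2 and 45.2 CPM in AAV206-GFP replicates 1 to 5. AAV2-GFP replicates 3, 4 and 5 lay above every AAV206-GFP mouse, and replicates 1 and 2 lay within the AAV206-GFP range. The means were 53.7 ± 11.1 and 39.7 ± 4.33 CPM (SD, n = 5 each), and the log2 fold change was -0.44 (standard error, SE, 0.12; adjusted p = 0.0292, edgeR's quasi-likelihood test). The call depended on single libraries of both groups. It was lost when any 1 of 6 libraries was left out (AAV2-GFP replicates 3, 4 and 5 and AAV206-GFP replicates 1, 2 and 4), with adjusted p between 0.0522 and 0.0756 (edgeR). Without AAV2-GFP replicate 3 the log2 fold change was -0.33, and in the rest of these fits it lay between -0.44 and -0.398. Over all genes the calls in these 6 fits also fell, from 1747 to between 991 and 1384. It was also lost with the interferon score as a covariate (-0.42, adjusted p = 0.13, edgeR).

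Psmb6, the caspase-like subunit, stood at 60.5, 57.4, 82.1, 66.0 and 58.5 CPM in the AAV2-GFP mice and 51.2, 58.0, 53.7, 46.0 and 63.3 CPM with AAV206-GFP. The groups overlapped, and the log2 fold change of -0.26 (SE 0.10) did not pass (adjusted p = 0.116, edgeR). Psmb7, the trypsin-like subunit, stood at 52.8, 53.8, 74.0, 59.9 and 52.8 CPM in the AAV2-GFP mice and 61.5, 62.6, 64.4, 54.7 and 58.5 CPM with AAV206-GFP. Apart from AAV2-GFP replicate 3 its values were close in both groups, with a log2 fold change of 0.04 (SE 0.09, adjusted p = 0.81, edgeR). The Psmb7 counts carried decimals in every library and 405 of its exon bases are shared with Nek6 on the opposite strand, so its level is less certain than that of Psmb6. Psmb5 shares 109 exon bases with the microRNA gene Mir686 on the same strand, which had a mean of 0 CPM. The Psmb5 counts carried a decimal in 1 library. The difference between the 3 catalytic genes was not tested. The 4 structural beta genes, Psmb1 to Psmb4, had log2 fold changes from -0.18 (Psmb4) to -0.05 (Psmb3), and none of these passed.

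**Figure D2:**
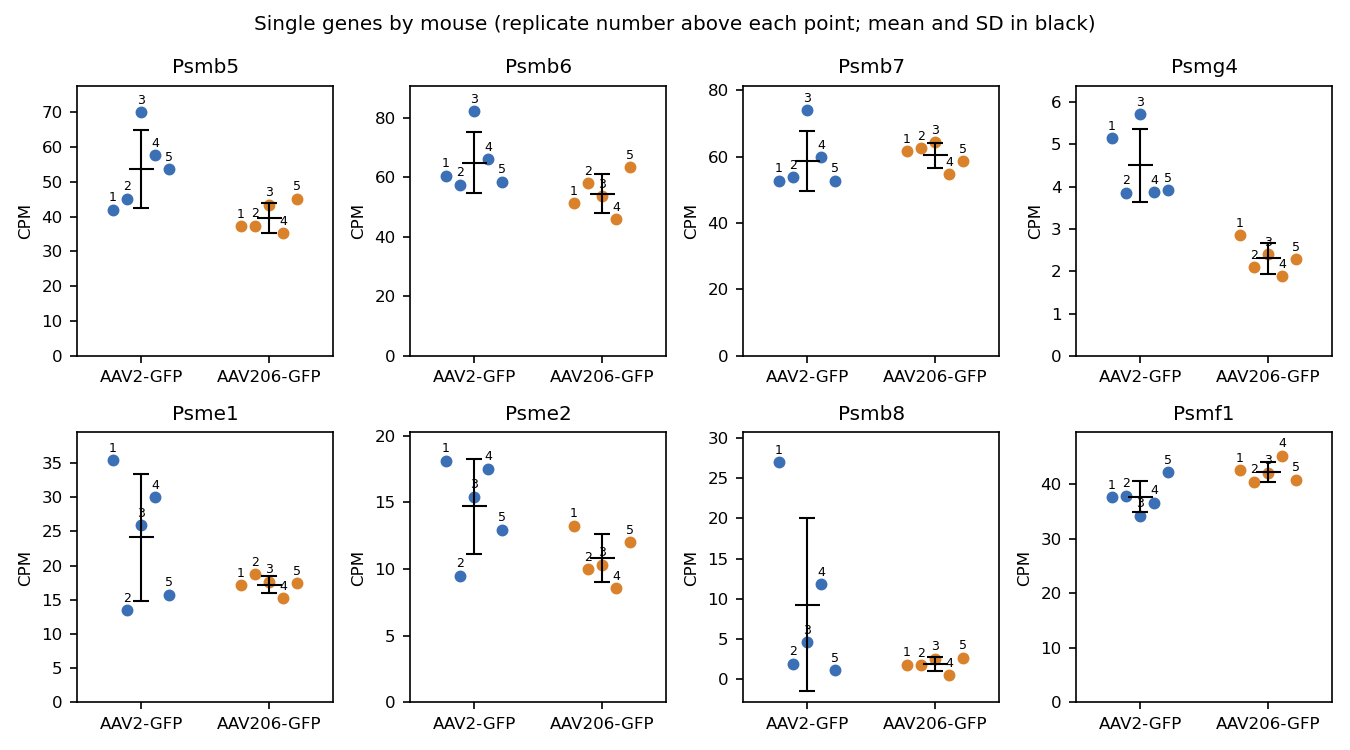
Level in CPM (vertical axis) of 8 genes in each mouse, with the replicate number above each point and the mean and SD in black. Psmg4 is the gene whose groups do not overlap; Psme1, Psme2 and Psmb8 are highest in AAV2-GFP replicate 1, and AAV2-GFP replicate 3 is highest for Psmb5, Psmb6, Psmb7 and Psmg4.

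No alpha ring gene passed the test. The 7 genes Psma1 to Psma7, whose products form the outer rings and the gate of the core, had log2 fold changes from -0.13 (Psma7) to 0.12 (Psma4), with SEs of 0.07 to 0.10. Summed over the ring, they reached 349.2 ± 31.8 CPM in AAV2-GFP mice and 338.6 ± 17.5 CPM in AAV206-GFP mice (SD, n = 5 each).

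Among the 17 genes of the 19S cap no gene passed either. The 6 ATPase genes, Psmc1 to Psmc6, all had log2 fold changes below 0, from -0.22 to -0.07, with a median of -0.16. Psmc3, whose product lies in that ring, had the lowest adjusted p of the 6: its means were 92.7 ± 8.14 and 79.4 ± 7.18 CPM (SD, n = 5 each), with a log2 fold change of -0.22 (SE 0.08, adjusted p = 0.0692, edgeR). Psmc3 shares 215 exon bases with Slc39a13 on the opposite strand. In the base, the scaffold genes Psmd1 and Psmd2 and the ubiquitin receptor gene Psmd4 had values of 0.11, 0.01 and 0.09. Psmd2 was the most even of them in level, at 170 ± 6.41 and 172 ± 3.87 CPM (SD, n = 5 each).

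The lid holds the deubiquitinase PSMD14, which removes ubiquitin chains, and its partner PSMD7. Psmd14 had a log2 fold change of -0.01. Psmd7 had means of 59.5 ± 4.49 CPM and 51.5 ± 3.17 CPM (SD, n = 5 each), a log2 fold change of -0.21 (SE 0.07, adjusted p = 0.0608, edgeR). Psmd8, a lid subunit, was at 92.5 ± 9.98 and 79.3 ± 5.6 CPM, a log2 fold change of -0.22 (SE 0.08, adjusted p = 0.0739, edgeR). The other 5 lid genes, Psmd3, Psmd6, Psmd11, Psmd12 and Psmd13, lay between -0.13 (Psmd12) and just below 0 (Psmd13). With DESeq2 in place of edgeR, Psmc3, Psmd7 and Psmd8 passed (adjusted p of 0.0441, 0.0470 and 0.0477), so 5 of 44 members were called there, all lower, against 14.5% of all genes that tool tested in either direction and 6.89% lower.

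Psmg4 was lower with AAV206-GFP, had the largest absolute log2 fold change of the tested members, and is the gene whose groups did not overlap. PSMG4 pairs with PSMG3 and helps to order the alpha ring. Psmg4 (ENSMUSG00000071451, chr13:34162964-34178173, plus strand) stood at 5.14, 3.85, 5.71, 3.86 and 3.92 CPM in AAV2-GFP replicates 1 to 5 and at 2.85, 2.09, 2.41, 1.88 and 2.28 CPM in AAV206-GFP replicates 1 to 5. Every AAV2-GFP mouse was above every AAV206-GFP mouse. The means were 4.498 ± 0.871 and 2.30 ± 0.367 CPM (SD, n = 5 each), a change of -48.6% with a log2 value of -0.96 (SE 0.21, adjusted p = 0.00854, edgeR's quasi-likelihood test). These levels rest on 21 to 74 counts per library, the fewest of the tested members. The call held when each of the 10 libraries was left out in turn, and it was lost with the interferon score as a covariate (-0.91, adjusted p = 0.0684, edgeR).

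The partner gene Psmg3 was at 11.99 ± 1.90 CPM against 9.37 ± 1.45 CPM in the AAV206-GFP mice (SD, n = 5 each), a log2 fold change of -0.36 (SE 0.15) that did not pass (adjusted p = 0.124, edgeR). Psmg1 and Psmg2, which encode the other chaperone pair, had values of -0.09 and 0.04. The 3 genes of the base chaperones did not pass: Psmd5 was at -0.13, Psmd9 at -0.08 and Psmd10 at -0.26.

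The PA28 genes Psme1 and Psme2 had, with Psmb5, the next largest absolute log2 fold changes after Psmg4, and neither passed. Psme1 was at 35.5, 13.5, 25.9, 30.0 and 15.8 CPM in the AAV2-GFP mice and at 17.1, 18.7, 17.6, 15.2 and 17.4 CPM with AAV206-GFP. Psme2 was at 18.1, 9.50, 15.4, 17.5 and 12.96 CPM in the AAV2-GFP mice and at 13.3, 10.01, 10.3, 8.59 and 12.01 CPM with AAV206-GFP. AAV2-GFP replicates 1, 4 and 3 were high for both genes, and AAV2-GFP replicate 2 lay at or below most AAV206-GFP mice. The log2 fold change was -0.49 (SE 0.20, adjusted p = 0.132, edgeR) for Psme1 and -0.44 (SE 0.17, adjusted p = 0.102, edgeR) for Psme2. Replicates 1, 3 and 4 also had the highest interferon scores of the 10 mice. The score was highest in replicate 4, while both genes were highest in replicate 1. Microglia markers summed to 174 CPM in replicate 1, 38.5 CPM in replicate 3 and 33.2 CPM in replicate 4. Markers of T and NK lymphocytes, all too low for the test, summed to 10.6, 0.386 and 0.241 CPM in these mice. The part of these cells in the Psme1 and Psme2 values was not tested. With the interferon score as a covariate the values were 0.05 for Psme1 and -0.14 for Psme2, and without AAV2-GFP replicates 1 and 4 they were -0.11 and -0.23. Without AAV2-GFP replicate 2 both passed, at -0.63 and -0.56 (adjusted p of 0.0289 and 0.0257, edgeR).

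The other activators and the inhibitor varied less. Psme3, the nuclear PA28 subunit, was at 0.04, Psme4 at 0.03, and Psmf1 had the highest value of any tested member, 0.17 (SE 0.07, adjusted p = 0.136, edgeR), with means of 37.7 ± 2.88 and 42.3 ± 1.90 CPM (SD, n = 5 each). Psme2b was left out of the test by the low-count filter and lay at 0.179 to 1.17 CPM, where 3 counts correspond to 0.235 to 0.273 CPM. The interferon-induced partners of the catalytic subunits were also highest in AAV2-GFP replicates 1 and 4. Counted per kilobase of transcript, Psmb8 made up 26.2, 2.35, 3.52, 10.2 and 1.13% of the Psmb5 and Psmb8 level in AAV2-GFP replicates 1 to 5 and 0.836 to 3.20% with AAV206-GFP. For Psmb10 beside Psmb7 the shares were 24.6, 9.96, 7.75, 13.7 and 6.92% with AAV2-GFP and 6.12 to 8.81% with AAV206-GFP, and Psmb9 itself, too low for the test, was at 18.9, 0.717, 1.00, 5.15 and 0.511 CPM in the AAV2-GFP mice and 0.172 to 1.00 CPM with AAV206-GFP. Psmb10 did not pass (log2 fold change -0.80, SE 0.31, adjusted p = 0.107, edgeR). Psmb8 passed the test (log2 fold change -2.29, SE 0.67, adjusted p = 0.0378, edgeR), but it did so in only 3 of 10 fits that each left out 1 library, the call being lost without AAV2-GFP replicate 1 or 4 or any 1 of the AAV206-GFP mice. Its value was -1.37 without AAV2-GFP replicate 1 (adjusted p = 0.0976, edgeR), -0.46 without AAV2-GFP replicates 1 and 4 (adjusted p = 0.591) and -0.10 with the interferon score as a covariate (adjusted p = 0.94). The Psmb8 call was also lost with limma-voom with and without sample weights, a surrogate variable, robust dispersions and the replicate block, with adjusted p from 0.124 to 0.341.

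Part of the spread of these genes followed single mice. AAV2-GFP replicate 3, the library with the largest total, had the highest level of 29 of the 45 members (64.4%), against 18.7% of all tested genes. It was highest for 13 of the 14 genes of the 20S core and 11 of the 17 genes of the 19S cap. AAV206-GFP replicate 4 was lowest for 18 of 45 members (40%), against 16.8% of all genes. What else set these 2 mice apart was not tested.

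**Figure D3:**
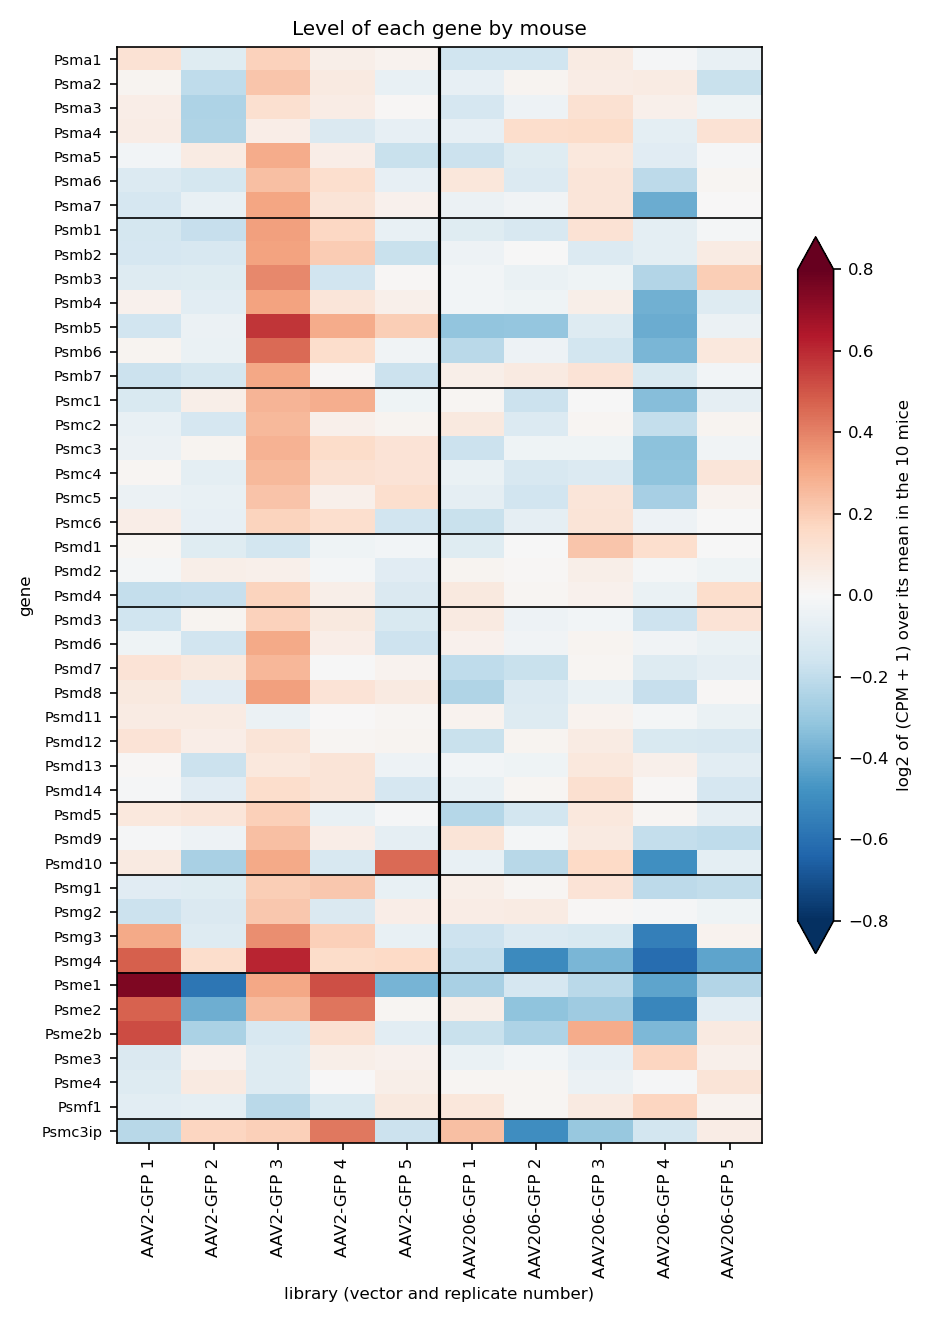
Level of each of the 45 genes (rows) in each of the 10 mice (columns), as the difference in log2(CPM + 1) from the gene's mean over all mice. The column of AAV2-GFP replicate 3 is red over most of the core and cap genes, AAV206-GFP replicate 4 is blue over many, and Psmg4 is above its mean in all AAV2-GFP mice.

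The summed level of all 45 genes was 2359, 2288, 2733, 2516 and 2361 CPM in the AAV2-GFP mice and 2295, 2294, 2442, 2202 and 2377 CPM with AAV206-GFP. The groups overlapped, and the means of 2452 ± 178 and 2322 ± 91.3 CPM (SD, n = 5 each) differed by -5.29%, or by -2.5% without AAV2-GFP replicate 3. The sum of the 20S core genes differed by -6.65%, and by -1.89% without that mouse. The ATPase ring genes differed by -9.99% and by -7.01% without it, and the beta ring genes by -9.87% and -3.97%. The 3 non-ATPase base genes were the structural group with a higher summed level with AAV206-GFP, 357.2 ± 9.51 against 343.1 ± 9.18 CPM (SD, n = 5 each). These sums were not tested and are weighted towards the abundant genes.

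**Figure D4:**
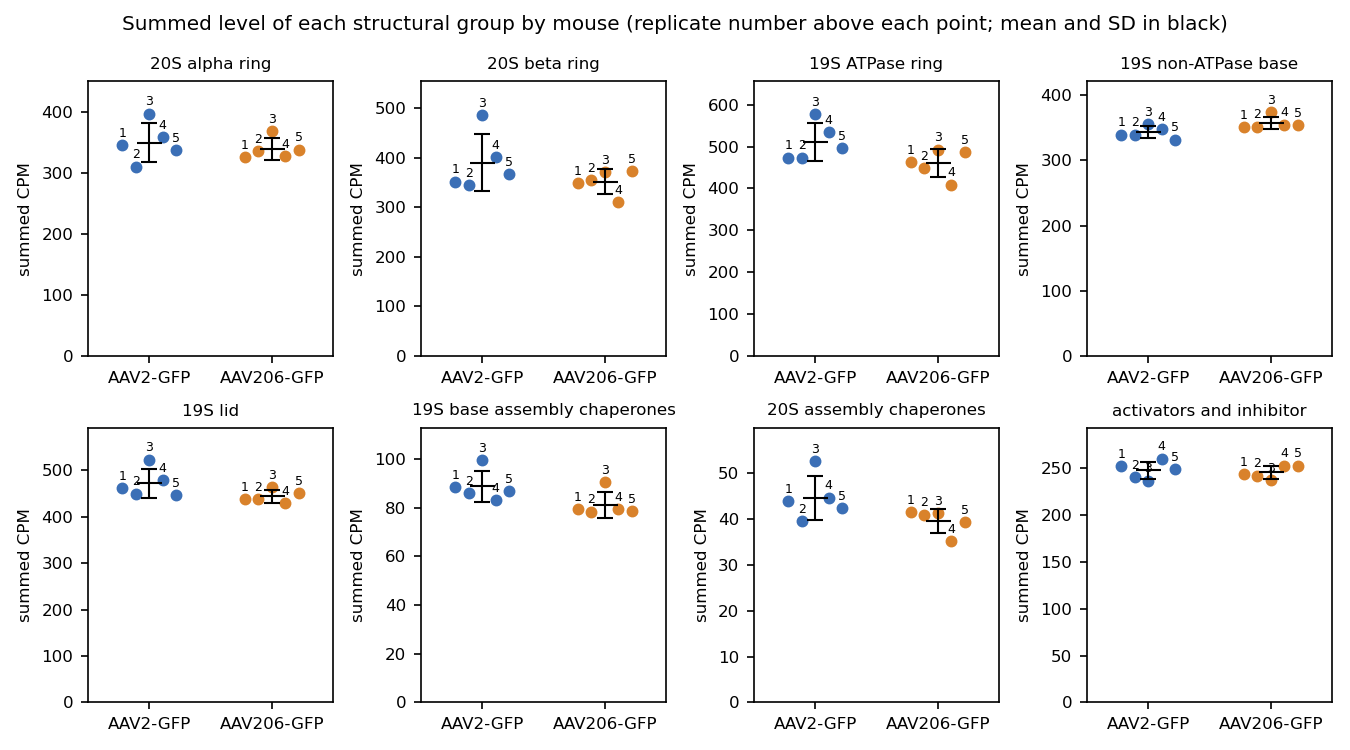
Summed CPM (vertical axis, from 0) of the genes of each structural group in each mouse, with the replicate number above each point and the mean and SD in black. AAV2-GFP replicate 3 is the highest mouse in 6 of the 8 panels, and the groups overlap in each panel.

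On the scale of mean CPM per kilobase of the longest principal transcript, the 7 beta ring genes ran from 31.8 (Psmb1) to 74.8 (Psmb6), a ratio of 2.35, and the 6 ATPase genes from 34.3 (Psmc2) to 68.6 (Psmc5), a ratio of 2.00. The 7 alpha ring genes ran from 18.8 (Psma2) to 54.0 (Psma7), and the 8 lid genes from 17.99 (Psmd11) to 55.8 (Psmd8). For the chaperones, which are not part of the finished complex, the PSMG genes ran from 6.13 (Psmg4) to 16.5 (Psmg2) and the base chaperones from 5.91 (Psmd10) to 11.2 (Psmd5). Among activators, Psme3 was at 32.6 and Psme2b at 0.614. These levels depend on which length is used. Per kilobase of merged exons, a length tried after seeing the data, the beta ring genes ran from 12.2 (Psmb1) to 51.9 (Psmb5) and the ATPase genes from 12.2 (Psmc2) to 64.8 (Psmc5). On that scale the lid gene Psmd11, at 8.03, was below the chaperone gene Psmg2, at 10.07.

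**Figure D5:**
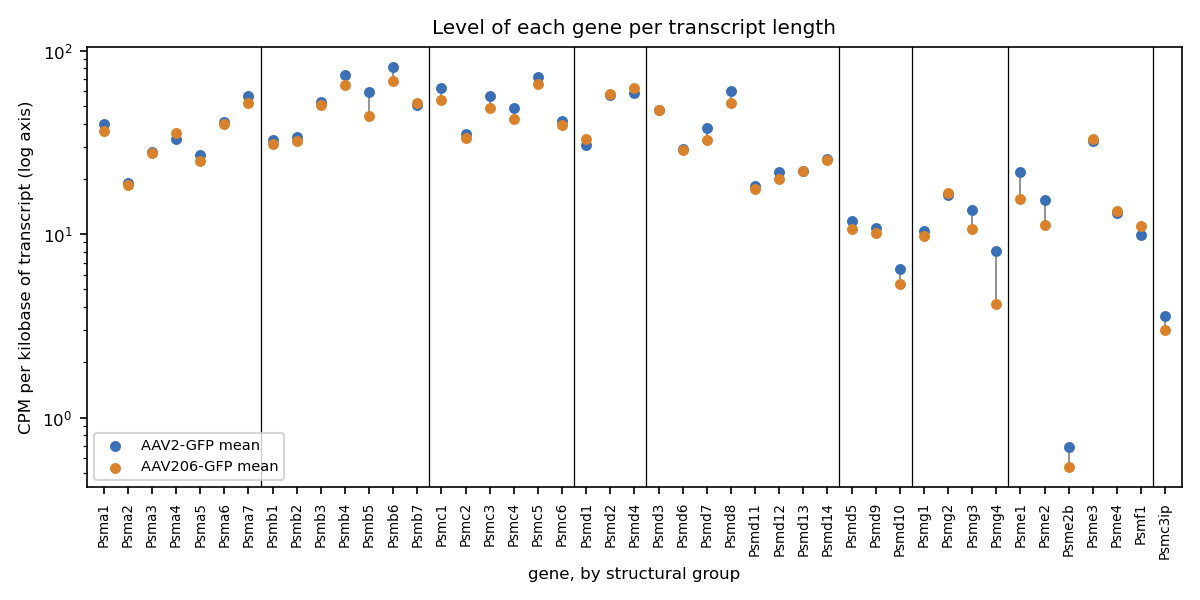
Mean level of each gene per kilobase of transcript (vertical log axis) with each vector, ordered by structural group. On this length scale ring and lid genes lie above the chaperones, and the largest gap between the vectors among the tested genes is at Psmg4.

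Genes that supply or control the proteasome were taken from a list of 39, of which 38 were in the table and 37 were tested. Of these, 5 passed (13.5%), all lower with AAV206-GFP, against 11.2% of all tested genes in either direction and 5.3% lower. The list was fixed with earlier results of these data known, so these shares are a description. The 5 genes were Psmb8, the small MAF genes Maff and Mafg, and the ubiquitin pathway genes Ubqln4 and Ubxn1. None of the 11 other subunit and assembly genes passed; Pomp, which encodes the core maturation factor, was at 47.3 ± 7.05 and 42.0 ± 5.54 CPM (SD, n = 5 each; adjusted p = 0.312, edgeR). Nfe2l1 itself was at 218 ± 7.67 and 208 ± 11.3 CPM (log2 fold change -0.06, adjusted p = 0.489, edgeR), and Ddi2, the protease that activates its product, at 148 ± 16.6 and 154 ± 4.39 CPM (0.07, adjusted p = 0.584, edgeR).

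Maff stood at 3.16, 2.33, 4.09, 2.41 and 2.05 CPM in the AAV2-GFP mice and at 1.34, 1.09, 1.29, 1.16 and 1.69 CPM with AAV206-GFP, with no overlap between the groups (log2 fold change -1.09, SE 0.27, adjusted p = 0.0174, edgeR) on 12 to 53 counts per library. The Maff call was lost without AAV2-GFP replicate 3 (-0.91, adjusted p = 0.0549, edgeR), without AAV2-GFP replicates 1 and 4 (-1.10, adjusted p = 0.059) and with the interferon score as a covariate (-0.997, adjusted p = 0.116). AAV2-GFP replicates 3 and 1 were the highest mice for both Maff and Psmg4. Mafg was at 149 ± 11.1 and 126 ± 11.4 CPM (SD, n = 5 each; -0.24, SE 0.07, adjusted p = 0.0436, edgeR), a call lost without any 1 of AAV2-GFP replicates 2, 4 and 5 and AAV206-GFP replicates 2, 3, 4 and 5, and with the interferon score (adjusted p = 0.181). Ubqln4, whose product carries ubiquitinated proteins to the proteasome, was at 92.9 ± 4.27 and 75.3 ± 6.45 CPM (-0.30, SE 0.07, adjusted p = 0.00876, edgeR). Ubxn1, which encodes a ubiquitin-binding cofactor of the segregase VCP, was at 52.7 ± 4.07 and 42.4 ± 2.99 CPM (-0.31, SE 0.07, adjusted p = 0.0122, edgeR), and its call was lost with the interferon score as a covariate (-0.29, adjusted p = 0.0966). The groups did not overlap for either of these ubiquitin genes, and Ubqln4 passed in all 24 alternative fits tried. Uba1 and Vcp of the same list had no overlap either but did not pass (adjusted p of 0.103 and 0.235, edgeR). Of all tested genes 9.78% had groups that did not overlap, and 4.36% when only those lower with AAV206-GFP are counted.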

How the data were processed

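Retinas of 10 mice were compared by bulk RNA sequencing, 5 with AAV2-GFP and 5 with AAV206-GFP, grouped by their titles. Per the labels' protocols, RNA was extracted with Trizol and sequenced as read pairs from NEBNext Ultra libraries. Per the submitters' processing notes, STAR 2.7.10b, RSEM 1.3.1 and mm10 were named. The authors deposited an unscaled table of estimated counts, in which 5.952% of values carry decimals. These expected counts were rounded here. Counting by strand is not given in the sources used here, so reads of overlapping exons cannot be assigned with certainty; 13 members share exon bases with another annotated gene. A total of 37 members had whole values in every library and 8 (Psmb5, Psmb7, Psmc3ip, Psmd1, Psmd5, Psmd11, Psmd13, Psmg3) did not.

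Gene names and coordinates came from GENCODE M21, which named 52029 of the 57010 identifiers. Members and gene lists were chosen with earlier results of these data known. Every member is named; full values are given for members past the threshold, Psmb5, Psmb6, Psmb7, Psme1, Psme2 and the 2 members with the largest change among those not past it, and, of the related list, for genes past the threshold and Nfe2l1, Ddi2, Pomp, Psmb8, Psmb9 and Psmb10. In R 4.3.3, edgeR 4.0.16 kept genes by filterByExpr (minimum count 10), scaled by trimmed means of M values (TMM), and fitted a quasi-likelihood F test to all 10 libraries without covariates. Adjusted p-values are Benjamini-Hochberg over 15539 genes, with a threshold of 0.05. CPM are per TMM-scaled library. On counts simulated from these libraries, with 193 changed genes among 15330 tested, edgeR called 77.32% of the genes changed by 2-fold and 51.04% of those changed by 1.5-fold, with 8 false among 132 calls. Fewer genes were changed there than the 1747 called in the data, and no change smaller than 1.5-fold was simulated. These shares therefore do not give the recovery of changes as small as those of most members. No pair of libraries agreed within sampling noise. Alternatives covered scaling, filters, DESeq2 1.42.0, limma 3.58.1 (voom), a surrogate variable (sva 3.50.0), an interferon covariate, a replicate block and leaving out libraries.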

Additional observations from a re-analysis of the deposited data

Results flagged for a closer look

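In 132 groups of 5 mice examined, 5 held a mouse whose gap to the nearest of the others, divided by the whole range, was above 0.71, and chance alone gives about 6.6. Psmb3 was at 51.6 CPM in AAV2-GFP replicate 3 and at 35.2 to 39.6 CPM in the other AAV2-GFP mice. Psmb9, an induced catalytic subunit gene, was at 18.9 CPM in AAV2-GFP replicate 1 and at 0.511 to 5.15 CPM in the other AAV2-GFP mice. AAV206-GFP replicate 3 was the high mouse of its group for 3 sums: the base chaperones at 90.6 CPM (others 78.4 to 79.3), the non-ATPase base at 374 CPM (others 351 to 355) and the alpha ring at 368 CPM (others 325 to 337).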

How the results depend on the processing

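The number of members past the threshold was 2 in the reported fit. It was 1 with at least 50 counts in every library, a filter that Psmg4 does not reach, and 5 with DESeq2. With the interferon score as a covariate in edgeR it was 0. In that fit 4 members had an unadjusted p under 0.05, a share that was not computed over all genes. The number past the threshold was 1 to 5 when single libraries were left out, and Psmg4 was among the calls in each of those fits. Of the related genes, 3 passed with at least 50 counts in every library, 3 with the replicate block, 1 with the interferon score, 2 without AAV2-GFP replicates 1 and 4 and 3 to 6 when single libraries were left out. Over all genes the count of 1747 (11.2%) became 1085 with the replicate block and 565 (3.64%) with the interferon score. It was 985 without AAV2-GFP replicates 1 and 4 and 991 to 1912 when single libraries were left out. It was 1686 with at least 50 counts in every library, where fewer genes were tested, and 2248 (14.5%) with DESeq2. Without AAV2-GFP replicate 2, where 5 members passed, it was 1799. The counts of members and related genes were not separated from these moves over all genes. The cause was not tested. The median log2 fold change of the members stayed between -0.117 and -0.038 when single libraries were left out, and their summed difference between -6.84 and -2.5%; per kilobase of transcript it was -7.28%, and per kilobase of merged exons, an alternative chosen after seeing the data, -8.1%. Same-numbered mice did not deviate together (correlations of -0.0519 to 0.0405, and no library was closest to its own number). No pairing by number was seen, but these correlations cannot exclude one. With the replicate block 2 members passed, Psmb5 and Psmg4.

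The log2 fold change turned sign in at least 1 alternative for 18 members, none of which had passed in the reported fit, and for 26 tested members it did not. Psme1 was among the 18 although its reported value was -0.49. With the interferon score the values were 0.0205 (Psmc6), 0.0685 (Psmd13), 0.0629 (Psmd14), 0.0012 (Psmd3), 0.0387 (Psmd6), 0.0312 (Psma2), 0.056 (Psma3), 0.0244 (Psma6), 0.00235 (Psmg1), -0.0118 (Psmg2), 0.0216 (Psmb2), 0.0456 (Psme1) and -0.00319 (Psme4). With sample weights in limma-voom they were 0.00958 (Psmd13), 0.0293 (Psmd14), 0.00393 (Psmd3), 0.0279 (Psmd6), 0.00344 (Psma2), 0.0133 (Psma3), 0.00194 (Psmb3) and -0.00337 (Psme3). Without AAV2-GFP replicates 1 and 4 they were 0.0302 (Psmd13), 0.0108 (Psmd14), -0.000411 (Psmd2), 0.0141 (Psma3), -0.0479 (Psmg2) and -0.0041 (Psmb7). With 1 surrogate variable they were 0.00791 (Psmd13) and 0.00789 (Psma3), and Psmd13 was at 0.00753 with at least 50 counts in every library and 0.006 with upper-quartile factors. When single libraries were left out, the ranges were -0.042 to 0.0235 (Psmd13), -0.0489 to 0.0212 (Psmd14), -0.0505 to 0.0316 (Psmd3), -0.068 to 0.0572 (Psmd6), -0.0099 to 0.0286 (Psmd2), -0.0867 to 0.0163 (Psma2), -0.0681 to 0.0176 (Psma3), -0.0755 to 0.0193 (Psma6), -0.126 to 0.00448 (Psmb1), -0.118 to 0.0153 (Psmb2), -0.106 to 0.0609 (Psmb3) and -0.00559 to 0.0573 (Psme3). Low counts limit the precision for Psmg4, Maff, Psmb8, Psme2b and Psmb9, and recovery of 1.5-fold changes was incomplete on simulated counts.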
